A study of Homo sapiens with 6 samples.

Results

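The nuclear factor kappaB (NF-kappaB) genes described here are 35 members, taken by gene symbol out of the 26475 genes in the table over all libraries. They are NF-kappaB subunits, feedback inhibitors and adaptors, chemokines, cytokines, and acute-phase, complement and other effector genes. Messenger RNA was measured by RNA sequencing in 3 human lung cancer cell lines that were all grown in MGS. The lines were PC9-AMG, PC9-BrM4 and PC9, with 2 libraries each, and no other treatment or allele is labelled. PC9 is an established line of EGFR-mutant lung adenocarcinoma, and PC9-BrM4 is known as a brain-metastatic line derived from it. The labels do not expand MGS or AMG, and they do not say whether a derived line is 1 clone. From what is known of this work, MGS is a culture with mouse glial cells on a soft support. The name of every library holds the word mix, and whether mouse transcripts entered the human gene values was not tested. The labels do not say that the 2 libraries of a line came from separate cultures, so p-values measure the spread between these libraries, which may be technical.

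NF-kappaB is a family of transcription factor dimers that inhibitor proteins hold in the cytoplasm. Signals from the receptors of tumour necrosis factor, interleukin-1 and microbial products lead to destruction of the inhibitors, and the dimers then enter the nucleus and bind kappaB sites near their target genes. The targets include neutrophil-attracting chemokines, cytokines, adhesion molecules and acute-phase proteins, and also the inhibitors themselves, which closes a negative feedback loop. In lung cancer cells the pathway is known for inflammatory signalling to neighbouring cells and for survival.

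Levels are in TPM, the usual length-corrected transcript unit in which each library sums to the same total, so a level is a share of a library's messenger RNA. In bulk samples, fewer cells of a type and less RNA per cell cannot be told apart. Each library held 13848 to 14171 genes at 1 TPM or more, and 1 TPM stood for 0.606 to 0.822 reads per base of transcript by the deposited coverage. Epithelial and lung markers summed to 14733 to 15272 TPM in PC9-AMG, 12540 to 13079 TPM in PC9-BrM4 and 16966 to 17193 TPM in PC9. The epithelial adhesion gene EPCAM had 634 to 856 TPM across the libraries, whereas the lung lineage marker SFTPB was listed at 0 in all 6 and NKX2-1 was at most 0.283 TPM. Of 10 epithelial and lung markers tested, 6 were lower in PC9-BrM4 than in PC9, against 6.45% of all genes tested. In PC9-AMG 4 were lower than in PC9, against 3.82% of all, and none was higher in either comparison. In PC9-AMG against PC9-BrM4, 3 were higher, against 6.31% of all, and 2 were lower, against 12.3% of all. Microglia and macrophage markers summed to 227 to 248 TPM in PC9-AMG, 168 to 182 TPM in PC9-BrM4 and 229 to 238 TPM in PC9, mostly from the lysosomal gene CD68, and 8 of 14, among them AIF1, TYROBP and CX3CR1, were listed at 0 in every library. Astrocyte markers summed to 40.2 to 45.1 TPM in PC9-AMG, 29.7 to 33.5 TPM in PC9-BrM4 and 30.9 to 32.4 TPM in PC9, with GFAP, S100B, SPARCL1 and FABP7 of the 10 at 0 throughout. Oligodendrocyte and neuron markers summed to 122 to 136 TPM in PC9-AMG, 142 to 158 TPM in PC9-BrM4 and 137 to 143 TPM in PC9, with 5 of 12 at 0 throughout. Endothelial and fibroblast markers summed to 10.7 to 17.3 TPM in PC9-AMG, 17.7 to 19.4 TPM in PC9-BrM4 and 11.4 to 13.1 TPM in PC9, with 3 of 12 at 0 throughout. The part of these marker differences in the results was not tested.

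The members together made up 0.195 to 0.222% of a library's TPM, and the spread among them was wide. LCN2, the siderophore-binding protein lipocalin 2, alone gave 53.5% and 54.1% of the summed member TPM in PC9-AMG, 46.1% and 48.7% in PC9-BrM4 and 52.4% and 50.9% in PC9. Without LCN2 the members summed to 989 and 894 TPM in PC9-AMG, 1130 and 1067 TPM in PC9-BrM4 and 1057 and 1068 TPM in PC9. The next levels by group mean were those of CXCL16 and CFB in PC9-AMG and of TNFAIP2 and CXCL16 in PC9-BrM4 and PC9, whereas CCL2 and CCL20, chemokines for monocytes and for lymphocytes and dendritic cells, and CSF3, the granulocyte growth factor, were listed at 0 in all 6 libraries. CXCL5 and CXCL6, chemokines for neutrophils, were also below the level needed for testing. A gene was tested when it reached 1 TPM in at least 2 libraries, which 30 of the 35 members did. CXCL3 passed only through the PC9-BrM4 libraries.

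**Figure D1:**
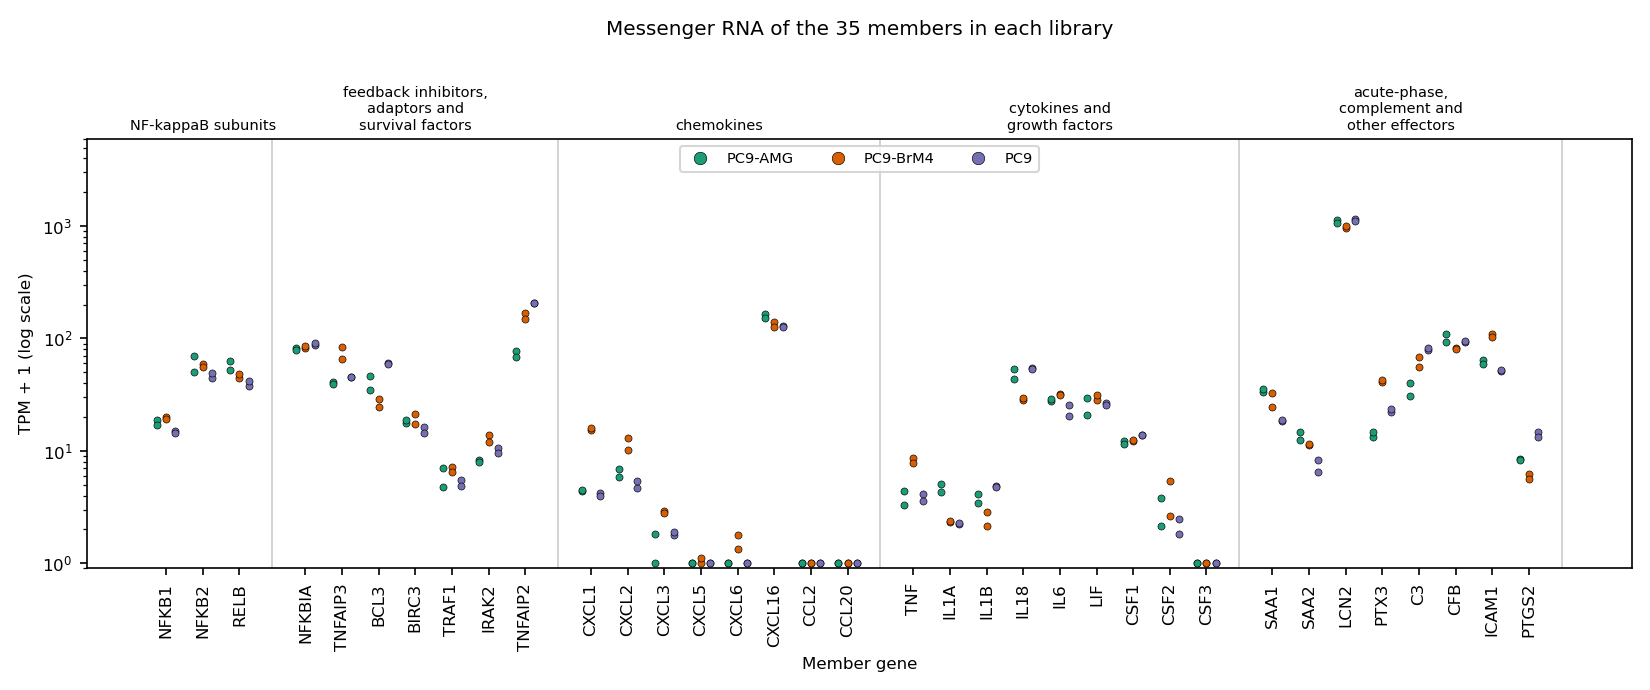
TPM + 1 (log scale) of the 35 members in each of the 2 libraries of PC9-AMG, PC9-BrM4 and PC9, grouped by role, with 1 point per library. LCN2 lies between 966 and 1165 TPM in every library, CCL2, CCL20 and CSF3 lie at 0, and CXCL1, CXCL2, TNF and ICAM1 are highest in PC9-BrM4.

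Differences were tested with limma on log2(TPM + 1), with Benjamini-Hochberg adjustment over the 14627 genes tested, and calls were made where the adjusted p was under 0.05. All differences below are on that log2 scale, with the standard error (SE), and they understate the change of low genes. The 3 comparisons share libraries pairwise, so they are not independent of each other. Of the members, 19 were called in at least 1 comparison and 11 in none. TNFAIP2 and PTX3 were called in all 3.

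In PC9-BrM4 against PC9, the neutrophil chemokines CXCL1 and CXCL2, the cytokines TNF and IL6, the adhesion molecule ICAM1, the acute-phase genes SAA1, SAA2 and PTX3, and the inhibitor TNFAIP3 were higher. BCL3, TNFAIP2, IL1B, IL18 and PTGS2 were lower. Thus 9 of 30 tested members rose, against 9.89% of all genes tested, and 5 fell, against 6.45% of all. In total 46.7% of the tested members and 16.3% of all genes tested were called. Members and related lists were chosen with earlier results of these data known, so their called shares, here and below, are not independent of that choice. The median difference was 0.31 over the tested members and 0.09 over all genes tested. The 2 libraries of PC9-BrM4 did not overlap those of PC9 for 29 of the 30 members, against 61.2% of all genes tested. Without CXCL3, which passed the filter only through PC9-BrM4, the groups did not overlap for 28 of 29 members. Their median difference was then 0.30. With every library centred on its median the members' split was 6 higher and 6 lower, since IL6, SAA1 and SAA2 were then not called and C3 was called lower. The same centring moved the median of all genes by -0.10 and gave 917 higher and 1293 lower genes, against 1446 and 943 without it.

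In PC9-AMG against PC9, changes among the members were split evenly. RELB, IL1A, SAA1 and SAA2 rose, 4 of 30 against 3.67% of all genes tested, and TNFAIP2, PTX3, C3 and PTGS2 fell, 4 of 30 against 3.82% of all. Called genes made up 26.7% of the tested members and 7.49% of all genes tested. The median difference was 0.05 over the tested members and -0.05 over all genes tested. The groups did not overlap for 23 of the 30 members, against 59.8% of all genes tested. Median centring gave 685 higher and 436 lower genes, FPKM values gave 902 and 561, and the main values gave 537 and 559, while the members stood at 5 higher and 4 lower with centring and 5 and 5 with FPKM. None of the 4 members called higher kept its call when any of the 4 libraries compared was left out.

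In PC9-AMG against PC9-BrM4, most called members were lower in TPM, a split that median centring made even. CXCL1, CXCL2, CXCL3, TNF, PTX3, C3, ICAM1, TNFAIP2, TNFAIP3 and IRAK2 fell, 10 of 30 against 12.3% of all genes tested. CXCL3 entered this count only through its PC9-BrM4 libraries, and without it 9 of 29 fell. BCL3, IL1A and IL18 rose, 3 of 30 against 6.31% of all. Called genes made up 43.3% of the tested members and 18.6% of all genes tested, and the median difference was -0.10 over the tested members and -0.13 over all. The groups did not overlap for 24 of the 30 members, against 59.5% of all genes tested. Without CXCL3, 41.4% of the 29 members were called, their median difference was -0.08 and the groups did not overlap for 23. Median centring moved the median of all genes by 0.17 and turned the split of all called genes to 1606 higher and 900 lower, against 923 and 1797 without it. FPKM values moved it by 0.10 and gave 1341 higher and 1283 lower. The members' split was 8 higher and 8 lower with centring and 7 higher and 9 lower with FPKM. RELB and CXCL16 were called higher only under those 2 settings, CFB and PTGS2 under both and under others too, and IL1B under centring.

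**Figure D2:**
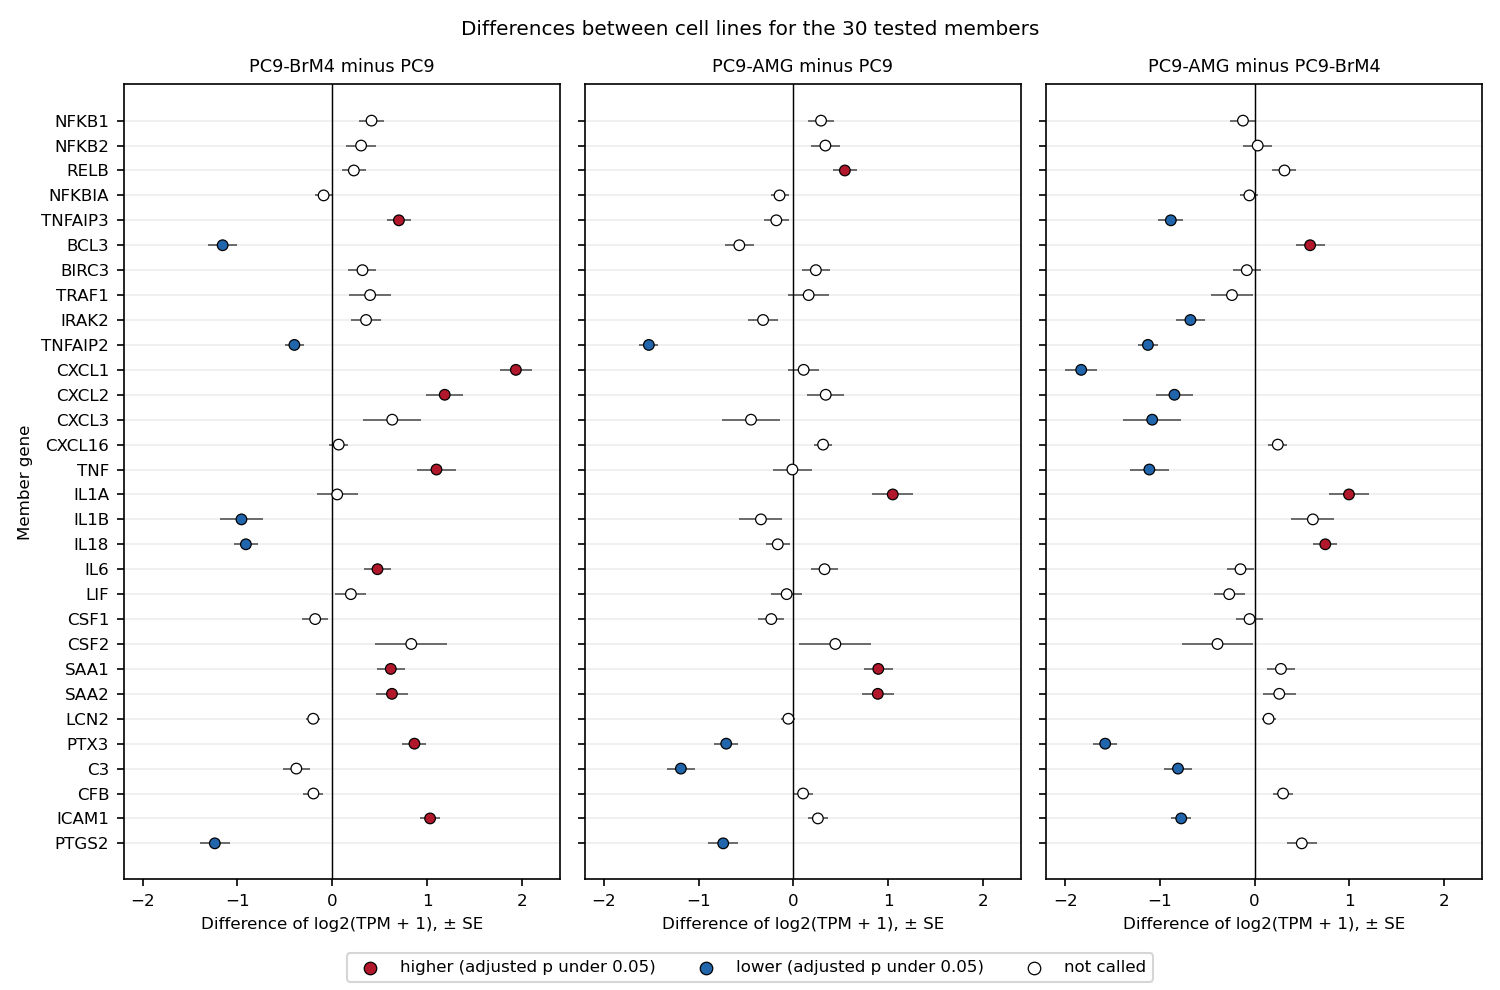
Difference of log2(TPM + 1) between cell lines for the 30 tested members, with 1 panel per comparison, points for the difference, bars for its SE (2 libraries per line), red for higher and blue for lower at an adjusted p under 0.05, and white for not called. CXCL1 reaches 1.94 in PC9-BrM4 minus PC9 and -1.83 in PC9-AMG minus PC9-BrM4, and PTX3 lies on opposite sides of 0 in the comparisons with PC9.

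Among the subunits, NFKB1 and NFKB2 encode precursors of DNA-binding subunits and RELB encodes the partner of the NFKB2 product in the noncanonical pathway. RELB (hg38 chromosome 19, 45001449 to 45038198) had 62.2 and 51.6 TPM in PC9-AMG, 43.1 and 47.6 TPM in PC9-BrM4 and 36.7 and 40.5 TPM in PC9. The PC9-AMG libraries were the highest, and no group overlapped another. RELB was higher in PC9-AMG than in PC9 by 0.54 ± 0.13 (SE; adjusted p = 0.0342), and this call was lost under 9 alternatives, among them leaving out any library (adjusted p between 0.0506 and 0.273, the highest without PC9 library 1). NFKB1 had 17.7 and 16.1 TPM in PC9-AMG, 18.9 and 18.0 TPM in PC9-BrM4 and 13.9 and 13.3 TPM in PC9. Its PC9 libraries were the lowest, but the differences of 0.29 in PC9-AMG and 0.41 in PC9-BrM4 did not pass the test (adjusted p = 0.203 and 0.0610). NFKB2 had 68.9 and 48.8 TPM in PC9-AMG, 58.6 and 54.8 TPM in PC9-BrM4 and 43.1 and 48.4 TPM in PC9, and was not called in any comparison.

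Of the feedback inhibitors, TNFAIP3 was called and NFKBIA was not. NFKBIA encodes the inhibitor that NF-kappaB induces against itself, and TNFAIP3 a ubiquitin-editing enzyme that ends the upstream signal. Their promoters are shown because both hold the kappaB consensus while their levels differed. The sequences are RefSeq GRCh38.p14, from base -130 to base -11 of the transcription start. Capitals mark letters that match the 10-base kappaB consensus GGGRNNYYCC on either strand, with overlapping matches merged. In it R is A or G, Y is C or T and N is any base. The NFKBIA window is chr14:35404760-35404879 on the minus strand and the TNFAIP3 window is chr6:137867129-137867248 on the plus strand.
NFKBIA: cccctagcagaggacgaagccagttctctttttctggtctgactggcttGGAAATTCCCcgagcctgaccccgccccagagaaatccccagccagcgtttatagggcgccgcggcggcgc
TNFAIP3: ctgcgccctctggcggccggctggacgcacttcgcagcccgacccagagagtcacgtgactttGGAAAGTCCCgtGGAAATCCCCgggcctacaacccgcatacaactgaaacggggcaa

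The match in NFKBIA starts at base -81, and those in TNFAIP3 start at bases -67 and -55. NFKBIA had 81.4 and 77.7 TPM in PC9-AMG, 81.4 and 83.9 TPM in PC9-BrM4 and 86.5 and 89.8 TPM in PC9. No comparison was called. TNFAIP3 (chromosome 6, 137867188 to 137883314) had 39.7 and 38.4 TPM in PC9-AMG, 82.7 and 64.2 TPM in PC9-BrM4 and 44.8 and 44.0 TPM in PC9. Both PC9-BrM4 libraries stood above all others. TNFAIP3 was higher in PC9-BrM4 than in PC9 by 0.70 ± 0.13 (SE; adjusted p = 0.00628). TNFAIP3 was lower in PC9-AMG than in PC9-BrM4, at -0.88 ± 0.13 (SE; adjusted p = 0.00189). These 2 calls held under every alternative run.

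BCL3, TNFAIP2 and IRAK2 were each called in at least 1 comparison. BCL3 (chromosome 19, 44748721 to 44760044) is a nuclear member of the inhibitor family that can act as a coactivator of NF-kappaB dimers. It had 45.5 and 33.8 TPM in PC9-AMG, 28.2 and 23.7 TPM in PC9-BrM4 and 59.7 and 58.0 TPM in PC9. The PC9-BrM4 libraries were the lowest and the PC9 libraries the highest, with no overlap. BCL3 was lower in PC9-BrM4 than in PC9, at -1.16 ± 0.15 (SE; adjusted p = 0.000949), under every alternative run. It was higher in PC9-AMG than in PC9-BrM4 by 0.59 ± 0.15 (SE; adjusted p = 0.0267), which was lost without PC9-BrM4 library 1, PC9-BrM4 library 2 or PC9-AMG library 1 (adjusted p = 0.0774, 0.117 and 0.121), without the filter (0.0823) and without the variance trend (0.0729). BCL3 was not called in PC9-AMG against PC9, at -0.57 ± 0.15 (SE; adjusted p = 0.0510), but was called lower under 5 alternatives, without PC9-AMG library 1 among them (adjusted p = 0.0457) and with the replicate number as a block (adjusted p = 0.0239).

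TNFAIP2 (chromosome 14, 103126327 to 103137439), a gene induced by tumour necrosis factor and known for tunnelling nanotubes between cells, was the highest called member. It had 75.7 and 67.3 TPM in PC9-AMG, 167 and 148 TPM in PC9-BrM4 and 208 and 207.0 TPM in PC9. The 3 lines were ordered without overlap. TNFAIP2 was lower in PC9-AMG than in PC9, at -1.53 ± 0.10 (SE; adjusted p = 0.000210), and lower in PC9-AMG than in PC9-BrM4, at -1.13 ± 0.10 (SE; adjusted p = 0.000119), under every alternative run. TNFAIP2 was also lower in PC9-BrM4 than in PC9, at -0.40 ± 0.10 (SE; adjusted p = 0.0258), but not without PC9 library 1, PC9 library 2 or PC9-BrM4 library 2 (adjusted p = 0.182, 0.175 and 0.105), nor without the filter (0.0543) or the variance trend (0.0932). The 59 other tested genes within 5 Mb of TNFAIP2 had a median difference of -0.09 in PC9-AMG against PC9.

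IRAK2, a kinase that relays interleukin-1 and Toll-like receptor signals, had 7.25 and 6.99 TPM in PC9-AMG, 13.0 and 11.1 TPM in PC9-BrM4 and 9.68 and 8.63 TPM in PC9. The PC9-AMG libraries were the lowest. It was lower in PC9-AMG than in PC9-BrM4, at -0.68 ± 0.16 (SE; adjusted p = 0.0166), but not without PC9-BrM4 library 1, PC9-AMG library 1 or PC9-AMG library 2 (adjusted p = 0.0825, 0.0587 and 0.0783). BIRC3, an inhibitor of apoptosis in the tumour necrosis factor receptor complex, had 13.5 to 20.1 TPM over all libraries. TRAF1, an adaptor of the same receptors, had 3.72 to 6.12 TPM. Neither was called in a comparison. Over the 7 feedback inhibitors, adaptors and survival factors, 1 was higher and 2 were lower in PC9-BrM4 against PC9, 0 and 1 in PC9-AMG against PC9, and 1 and 3 in PC9-AMG against PC9-BrM4. Called genes thus made up 42.9%, 14.3% and 57.1% of these members, against 16.3%, 7.49% and 18.6% of all genes tested.

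The chemokines that bind the receptor CXCR2 and attract neutrophils lie together on chromosome 4, and their promoters are shown because they share a kappaB match while their levels ran from 0 to 15.1 TPM. The windows have the same bounds, build and capitals as above. They are chr4:73869263-73869382 (plus strand) for CXCL1, chr4:74099206-74099325 (minus strand) for CXCL2, chr4:74038700-74038819 (minus strand) for CXCL3, chr4:73998688-73998807 (minus strand) for CXCL5 and chr4:73836548-73836667 (plus strand) for CXCL6.
CXCL1: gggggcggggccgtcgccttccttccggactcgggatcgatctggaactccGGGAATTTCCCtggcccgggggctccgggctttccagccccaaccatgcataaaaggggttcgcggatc
CXCL2: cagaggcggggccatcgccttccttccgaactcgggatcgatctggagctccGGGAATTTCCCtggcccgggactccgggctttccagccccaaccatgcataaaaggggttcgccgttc
CXCL3: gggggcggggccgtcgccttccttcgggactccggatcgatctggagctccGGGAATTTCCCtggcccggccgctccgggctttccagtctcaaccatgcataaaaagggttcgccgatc
CXCL5: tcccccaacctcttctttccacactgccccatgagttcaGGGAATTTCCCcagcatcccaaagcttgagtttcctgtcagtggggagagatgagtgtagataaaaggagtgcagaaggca
CXCL6: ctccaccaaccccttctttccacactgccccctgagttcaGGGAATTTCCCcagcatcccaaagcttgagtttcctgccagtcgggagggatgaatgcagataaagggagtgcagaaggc

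All 5 windows hold the same 11-base run, GGGAATTTCCC, in which 2 matches overlap, starting at base -79 in CXCL1, -78 in CXCL2, -79 in CXCL3, -91 in CXCL5 and -90 in CXCL6. The consensus was in 17 of the 31 RefSeq promoters of 25 members (54.8%), each promoter running from 250 bases before to 50 bases after a start, against 11.3% of the 35116 promoters in the table and 13.4% of the 14882 promoters of tested genes. Several members are on the list because they are textbook NF-kappaB targets, so this share does not stand apart from the choice of genes. Matches were also in promoters not printed here, those of NFKB1, NFKB2, BCL3, BIRC3, CCL20, IL6, LCN2 and CFB. The printed windows are thus a choice and do not tie a match to a call. No RefSeq promoter was found by symbol for RELB, CXCL16, CCL2, IL18, LIF, CSF1, CSF3, SAA1, SAA2 or C3. No match was in the windows searched for TRAF1, IRAK2, TNFAIP2, TNF, IL1A, IL1B, CSF2, ICAM1 or PTGS2. This does not mean that these genes lack kappaB sites. Sequences that differ from the consensus at any base were not counted, such as tggaaattcc in the ICAM1 window. The TNFAIP2 window, chr14:103123211-103123510, also ends before the start of the deposited gene position, 103126327. A match is a description of letters and not a bound site.

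CXCL1 (hg38 chromosome 4, 73869392 to 73871302) had 3.36 and 3.44 TPM in PC9-AMG, 14.3 and 15.1 TPM in PC9-BrM4 and 3.19 and 2.98 TPM in PC9. Both PC9-BrM4 libraries stood far above the other 4, which lay together. CXCL1 was higher in PC9-BrM4 than in PC9 by 1.94 ± 0.17 (SE; adjusted p = 6.83e-05), a 4.75-fold ratio of group means. CXCL1 was lower in PC9-AMG than in PC9-BrM4, at -1.83 ± 0.17 (SE; adjusted p = 0.000122), and not called in PC9-AMG against PC9, at 0.11 ± 0.17 (SE; adjusted p = 0.730). The 2 calls held under every alternative run. The 36 other tested genes within 5 Mb of CXCL1 had a median difference of 0.16 in PC9-BrM4 against PC9.

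CXCL2 (chromosome 4, 74097037 to 74099280) had 4.86 and 5.94 TPM in PC9-AMG, 9.13 and 11.98 TPM in PC9-BrM4 and 3.67 and 4.43 TPM in PC9. The PC9-BrM4 libraries were again the highest. CXCL2 was higher in PC9-BrM4 than in PC9 by 1.19 ± 0.19 (SE; adjusted p = 0.00324), a 2.61-fold ratio of group means, under every alternative run. It was lower in PC9-AMG than in PC9-BrM4, at -0.85 ± 0.19 (SE; adjusted p = 0.0158), but not without PC9-BrM4 library 2, PC9-AMG library 1 or PC9-AMG library 2 (adjusted p = 0.0644, 0.0930 and 0.0524), with median centring (0.0531) or without the filter (0.0578). The level of CXCL2 was 1.45 and 1.73 times that of CXCL1 in PC9-AMG, 0.640 and 0.796 times in PC9-BrM4 and 1.15 and 1.49 times in PC9, so CXCL1 was the higher of the pair only in the PC9-BrM4 libraries.

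CXCL3 (chromosome 4, 74036591 to 74038773) had 0.802 and 0 TPM in PC9-AMG, 1.90 and 1.78 TPM in PC9-BrM4 and 0.782 and 0.881 TPM in PC9. Because CXCL3 was tested only through the line in which it was high, its call in PC9-AMG against PC9-BrM4 (-1.08 ± 0.31, SE; adjusted p = 0.0370) is given as a description, and it was lost without PC9-AMG library 2 (adjusted p = 0.159), as it was without PC9-BrM4 library 1 or library 2 (0.180 and 0.102) and under 3 other settings (0.0697 to 0.0777). CXCL5 was listed at 0 except in PC9-BrM4 library 2, with 0.1001 TPM. CXCL6 was listed at 0 in PC9-AMG and in PC9 and had 0.323 and 0.791 TPM in PC9-BrM4, at coverages of 0.206 and 0.480 reads per base. The longest coding transcripts of these genes share little: 5.73% of the 50-base stretches of CXCL1 occur in CXCL2 and 4.62% of those of CXCL2 in CXCL3, so reads from those stretches cannot be assigned with certainty. CXCL16, a chemokine for CXCR6 that is also made as a membrane protein, had 165 and 150.1 TPM in PC9-AMG, 140.2 and 125 TPM in PC9-BrM4 and 128 and 125 TPM in PC9, and was not called. Its differences were 0.31 in PC9-AMG against PC9 (adjusted p = 0.0819) and 0.24 in PC9-AMG against PC9-BrM4 (adjusted p = 0.109), and both were called with median centring (adjusted p = 0.0443 and 0.0180) and with FPKM (0.0303 and 0.0244).

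Among the cytokines, TNF (chromosome 6, 31575567 to 31578335), the tumour necrosis factor that both activates NF-kappaB and is induced by it, had 2.28 and 3.38 TPM in PC9-AMG, 7.60 and 6.80 TPM in PC9-BrM4 and 3.09 and 2.57 TPM in PC9. The PC9-BrM4 libraries stood above the other 4, which overlapped. TNF was higher in PC9-BrM4 than in PC9 by 1.10 ± 0.21 (SE; adjusted p = 0.00706), but not without PC9 library 2 or PC9-BrM4 library 1 (adjusted p = 0.0579 and 0.0588). TNF was lower in PC9-AMG than in PC9-BrM4, at -1.11 ± 0.21 (SE; adjusted p = 0.00621), but not without PC9-BrM4 library 1 (adjusted p = 0.0634). IL6, the cytokine that induces the acute-phase response in liver, had 26.9 and 28.2 TPM in PC9-AMG, 30.8 and 30.5 TPM in PC9-BrM4 and 19.2 and 24.5 TPM in PC9. Both derived lines lay above PC9 without overlap. IL6 was called higher in PC9-BrM4 than in PC9, at 0.48 ± 0.14 (SE; adjusted p = 0.0434), and this was lost under 11 alternatives, among them leaving out any library (adjusted p between 0.0609 and 0.414, the highest without PC9 library 1). The 45 other tested genes within 5 Mb of IL6 had a median difference of 0.40 in the same comparison.

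Of the interleukin-1 family, IL1A was called higher in PC9-AMG than in either other line, and IL1B and IL18 were called lower in PC9-BrM4 than in PC9. IL1A (chromosome 2, 112773915 to 112785394), the interleukin-1 that cells hold back and release on injury, had 3.32 and 4.01 TPM in PC9-AMG, 1.303 and 1.36 TPM in PC9-BrM4 and 1.22 and 1.28 TPM in PC9. The PC9-AMG libraries stood above the other 4, which had coverages of only 0.804 to 0.829 reads per base. IL1A was higher in PC9-AMG than in PC9 by 1.05 ± 0.22 (SE; adjusted p = 0.0226), but not without PC9 library 1 or 2 (adjusted p = 0.135 and 0.117) or PC9-AMG library 1 or 2 (0.0627 and 0.112). IL1A was higher in PC9-AMG than in PC9-BrM4 by 0.996 ± 0.22 (SE; adjusted p = 0.0122), but not without PC9-BrM4 library 1 or PC9-AMG library 2 (adjusted p = 0.0608 and 0.0738). IL1B (chromosome 2, 112829760 to 112836779), the interleukin-1 that inflammasomes cut before secretion, had 2.45 and 3.14 TPM in PC9-AMG, 1.86 and 1.13 TPM in PC9-BrM4 and 3.82 and 3.77 TPM in PC9. Its PC9-BrM4 libraries were the lowest, at coverages of 1.18 and 0.685 reads per base. IL1B was lower in PC9-BrM4 than in PC9, at -0.96 ± 0.23 (SE; adjusted p = 0.0192), but not without PC9 library 1 or 2 (adjusted p = 0.10 and 0.0938) or PC9-BrM4 library 2 (0.0753).

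IL18 (chromosome 11, 112143251 to 112164117), a further inflammasome substrate that drives interferon-gamma, had 42.6 and 52.8 TPM in PC9-AMG, 27.2 and 28.6 TPM in PC9-BrM4 and 53.6 and 53.0 TPM in PC9. The PC9-BrM4 libraries were well below the other 4. IL18 was lower in PC9-BrM4 than in PC9, at -0.91 ± 0.13 (SE; adjusted p = 0.00128), and higher in PC9-AMG than in PC9-BrM4 by 0.75 ± 0.13 (SE; adjusted p = 0.00383), under every alternative run. The 42 other tested genes within 5 Mb had a median difference of 0.28 in PC9-BrM4 against PC9. The growth factors were not called in any comparison. LIF, an IL-6 family cytokine, had 19.9 to 30.1 TPM over all libraries, and CSF1, the macrophage growth factor, had 10.5 to 13.0 TPM. CSF2, the granulocyte and macrophage growth factor, had 1.16 and 2.81 TPM in PC9-AMG, 1.62 and 4.39 TPM in PC9-BrM4 and 1.47 and 0.806 TPM in PC9, and its PC9-AMG libraries overlapped both other lines.

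Among the effectors, PTX3 (chromosome 3, 157436791 to 157443628), a long pentraxin that marks microbes for complement and is made locally in inflamed tissue, lay on opposite sides of PC9 in the derived lines. Its promoter window (chr3:157436720-157436839, plus strand, same bounds, build and capitals) is shown because it holds a kappaB match at base -97 and PTX3 was called in all 3 comparisons.
PTX3: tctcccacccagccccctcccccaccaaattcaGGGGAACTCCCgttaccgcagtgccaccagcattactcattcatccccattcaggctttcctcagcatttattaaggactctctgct

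PTX3 had 12.3 and 13.8 TPM in PC9-AMG, 39.7 and 42.0 TPM in PC9-BrM4 and 21.3 and 22.6 TPM in PC9. The 3 lines were separated by more than their libraries differed. It was higher in PC9-BrM4 than in PC9 by 0.87 ± 0.13 (SE; adjusted p = 0.00170), and lower in PC9-AMG than in PC9-BrM4, at -1.58 ± 0.13 (SE; adjusted p = 5.83e-05), under every alternative run. PTX3 was lower in PC9-AMG than in PC9, at -0.71 ± 0.13 (SE; adjusted p = 0.0135), but not without PC9 library 1 or 2 (adjusted p = 0.0966 and 0.147) or PC9-AMG library 1 or 2 (0.0582 and 0.0531). PTX3 lies within VEPH1, which is on the opposite strand and had 0.604 TPM in PC9 library 1. The library kit marks strand, but whether the authors' estimates used it is not given in the sources used here.

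SAA1 (chromosome 11, 18266261 to 18269976) and SAA2 (chromosome 11, 18238233 to 18248674) encode the acute-phase serum amyloid A proteins. SAA1 had 32.5 and 34.7 TPM in PC9-AMG, 23.7 and 31.8 TPM in PC9-BrM4 and 17.3 and 17.9 TPM in PC9. SAA2 had 13.7 and 11.6 TPM in PC9-AMG, 10.2 and 10.5 TPM in PC9-BrM4 and 7.23 and 5.53 TPM in PC9. For both genes every library of a derived line lay above both PC9 libraries. SAA1 was higher in PC9-AMG than in PC9 by 0.90 ± 0.15 (SE; adjusted p = 0.0108), but not without PC9 library 1 or 2 (adjusted p = 0.0754 and 0.0666), PC9-AMG library 1 or 2 (0.0565 and 0.0830) or the filter (0.0620). SAA1 was higher in PC9-BrM4 than in PC9 by 0.62 ± 0.15 (SE; adjusted p = 0.0215), but not without PC9 library 1 or 2 (adjusted p = 0.132 and 0.104) or PC9-BrM4 library 2 (0.0781), nor under 3 other settings (0.0545 to 0.0805). SAA2 was higher in PC9-AMG than in PC9 by 0.89 ± 0.17 (SE; adjusted p = 0.0174), but not without PC9 library 1 or 2 (adjusted p = 0.0532 and 0.177), PC9-AMG library 1 or 2 (0.0945 and 0.0720) or the filter (0.0743). It was higher in PC9-BrM4 than in PC9 by 0.63 ± 0.17 (SE; adjusted p = 0.0339), which was lost under 8 alternatives, among them leaving out PC9 library 1 or 2 (adjusted p = 0.0665 and 0.313), PC9-BrM4 library 1 or 2 (0.102 and 0.104) or PC9-AMG library 1 (0.0506). Of the 50-base stretches of the SAA1 transcript, 21.9% occur in SAA2, and SAA2 also overlaps the read-through gene SAA2-SAA4, so the 2 genes are not fully separable. In PC9-AMG against PC9-BrM4 SAA1 was not called (0.28; adjusted p = 0.217), except without PC9-BrM4 library 2 (0.0424). The ratio of SAA2 to SAA1 was 0.423 and 0.333 in PC9-AMG, 0.428 and 0.331 in PC9-BrM4 and 0.419 and 0.309 in PC9. SAA2 had coverages of 2.89 and 2.68 reads per base in PC9-AMG, 2.43 and 2.20 in PC9-BrM4 and 1.87 and 1.61 in PC9. These coverages are low for its TPM, beside the reads per base that 1 TPM usually stood for. The size of its differences and of these ratios is therefore uncertain.

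Of the complement genes, C3 is the central component and CFB a factor of its alternative pathway convertase. C3 (chromosome 19, 6677835 to 6720682) had 38.8 and 29.9 TPM in PC9-AMG, 66.8 and 54.6 TPM in PC9-BrM4 and 77.1 and 80.7 TPM in PC9. The PC9-AMG libraries were the lowest and the PC9 libraries the highest. C3 was lower in PC9-AMG than in PC9, at -1.19 ± 0.15 (SE; adjusted p = 0.00294), under every alternative run, and lower in PC9-AMG than in PC9-BrM4, at -0.81 ± 0.15 (SE; adjusted p = 0.00515), except without PC9-BrM4 library 1 (adjusted p = 0.0721). In PC9-BrM4 against PC9 its difference was -0.38 ± 0.15 (SE; adjusted p = 0.108), and it was called with median centring (adjusted p = 0.0328) and with FPKM (0.0392). CFB had 108 and 92.2 TPM in PC9-AMG, 81.8 and 79.8 TPM in PC9-BrM4 and 91.1 and 94.7 TPM in PC9 and was not called. Its difference in PC9-AMG against PC9-BrM4, 0.30 ± 0.11 (SE; adjusted p = 0.0748), was called with median centring (adjusted p = 0.0175), without PC9-AMG library 2 (0.0422) and under 2 other settings. LCN2 had 1136 and 1055 TPM in PC9-AMG, 966 and 1011 TPM in PC9-BrM4 and 1165 and 1109 TPM in PC9, and was not called.

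ICAM1 (chromosome 19, 10270841 to 10286615), the adhesion molecule for leukocyte integrins, had 63.9 and 58.3 TPM in PC9-AMG, 109 and 101 TPM in PC9-BrM4 and 50.4 and 51.4 TPM in PC9. The PC9-BrM4 libraries stood above the rest. ICAM1 was higher in PC9-BrM4 than in PC9 by 1.03 ± 0.10 (SE; adjusted p = 0.000183), a 2.07-fold ratio of group means. ICAM1 was lower in PC9-AMG than in PC9-BrM4, at -0.77 ± 0.10 (SE; adjusted p = 0.00107). Both calls held under every alternative run. PTGS2 (chromosome 1, 186671812 to 186680427), the inducible cyclooxygenase of prostaglandin synthesis, had 7.53 and 7.22 TPM in PC9-AMG, 5.25 and 4.62 TPM in PC9-BrM4 and 13.8 and 12.2 TPM in PC9. Both derived lines lay below PC9. PTGS2 was lower in PC9-BrM4 than in PC9, at -1.24 ± 0.16 (SE; adjusted p = 0.000840), under every alternative run. PTGS2 was lower in PC9-AMG than in PC9, at -0.74 ± 0.16 (SE; adjusted p = 0.0261), but not without PC9 library 1 or 2 (adjusted p = 0.252 and 0.146), PC9-AMG library 1 or 2 (0.0844 and 0.115) or the filter (0.0764). Its difference in PC9-AMG against PC9-BrM4 was 0.50 ± 0.16 (SE; adjusted p = 0.0563), called with median centring (adjusted p = 0.0106) and under 3 other settings.

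**Figure D3:**
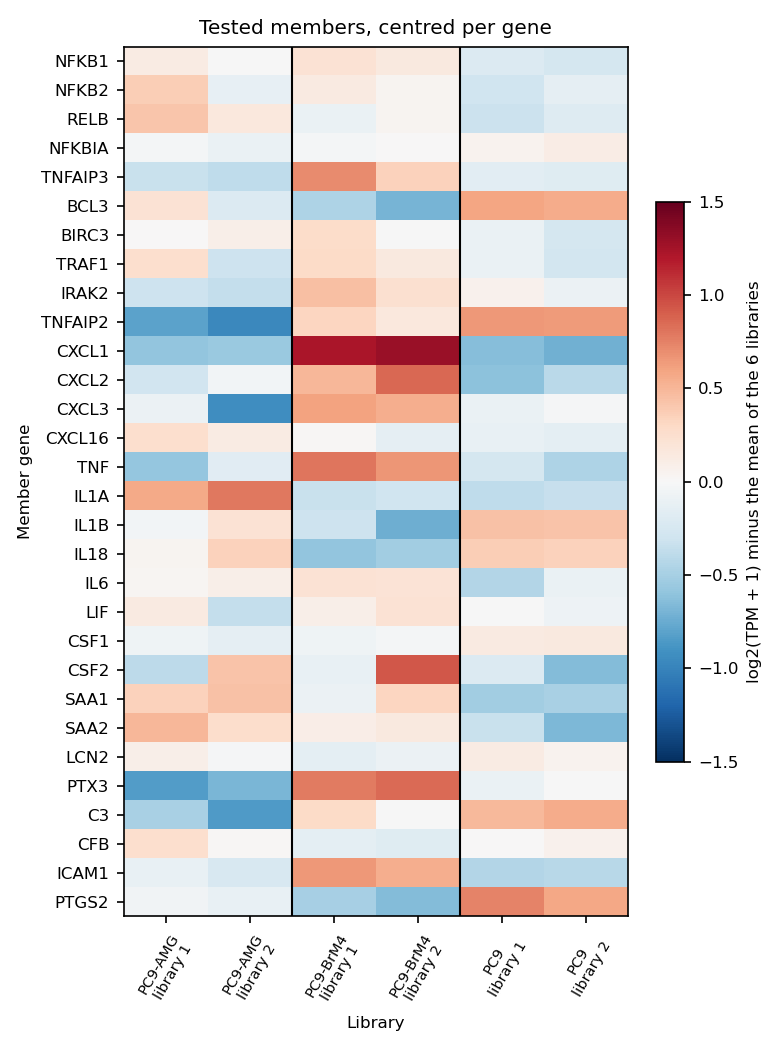
log2(TPM + 1) of the 30 tested members (rows, in order of role) in the 6 libraries (columns), minus the mean over the 6 libraries, with red above and blue below that mean. CXCL1, CXCL2, TNF, PTX3 and ICAM1 are red in both PC9-BrM4 libraries, and IL1A is red in both PC9-AMG libraries.

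Genes that act around the members were counted from lists of the pathway. Over all genes tested, 16.3% were called in PC9-BrM4 against PC9, 7.49% in PC9-AMG against PC9 and 18.6% in PC9-AMG against PC9-BrM4, and the called shares of each list are given in that order of comparisons. Among 12 tested subunits and inhibitors outside the members, 3 were higher and 0 lower in PC9-BrM4 against PC9, 2 and 0 in PC9-AMG against PC9, and 1 and 2 in PC9-AMG against PC9-BrM4, which are shares of 25.0%, 16.7% and 25.0%. PDLIM2, a ligase that ends nuclear NF-kappaB activity, had 37.8 and 39.2 TPM in PC9-AMG, 62.0 and 62.4 TPM in PC9-BrM4 and 28.7 and 31.0 TPM in PC9. It was higher in PC9-BrM4 than in PC9 by 1.03 (adjusted p = 0.000226) and lower in PC9-AMG than in PC9-BrM4, at -0.68 (adjusted p = 0.00281). The inhibitor NFKBIE had 23.0 and 21.0 TPM in PC9-AMG, 21.8 and 21.9 TPM in PC9-BrM4 and 11.5 and 13.0 TPM in PC9. NFKBIE was higher in PC9-AMG than in PC9 by 0.80 (adjusted p = 0.0107) and in PC9-BrM4 than in PC9 by 0.79 (adjusted p = 0.00383). The NFKBIE calls were lost without PC9 library 1 (adjusted p = 0.125 in PC9-AMG and 0.0605 in PC9-BrM4), and that in PC9-AMG also without any other library compared (0.0578 to 0.0659). NFKBIB, another inhibitor, was higher in PC9-AMG than in PC9 by 0.68 (adjusted p = 0.0232) and CYLD, a deubiquitinase that restrains the pathway, was higher in PC9-BrM4 than in PC9 by 0.72 (adjusted p = 0.0175). NFKBIB lost that call without any library compared (adjusted p = 0.0646 to 0.181) and under 2 other settings (0.0605 and 0.0724), and CYLD without PC9 library 1 or 2, PC9-BrM4 library 1 or the filter (0.136, 0.0845, 0.0820 and 0.0561).

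Of 19 tested upstream receptors, decoys and antagonists, 4 were higher and 2 lower in PC9-BrM4 against PC9, 3 and 0 in PC9-AMG against PC9, and 2 and 4 in PC9-AMG against PC9-BrM4, which are shares of 31.6%, 15.8% and 31.6%. CD40, a receptor that activates the noncanonical pathway, had 26.3 and 25.2 TPM in PC9-AMG, 6.36 and 3.20 TPM in PC9-BrM4 and 22.2 and 23.7 TPM in PC9. CD40 was lower in PC9-BrM4 than in PC9, at -2.10 (adjusted p = 0.000272), and higher in PC9-AMG than in PC9-BrM4 by 2.27 (adjusted p = 0.000223). TLR4, the receptor for bacterial lipopolysaccharide, had 0.248 and 0.290 TPM in PC9-AMG, 5.06 and 3.82 TPM in PC9-BrM4 and 0.429 and 0.342 TPM in PC9. TLR4 passed the filter only through its PC9-BrM4 libraries, so these levels are a description and its calls, which are in the counts above, support nothing. IL1R2, a decoy that binds interleukin-1 without signalling, had 19.3 and 21.0 TPM in PC9-AMG, 33.7 and 33.3 TPM in PC9-BrM4 and 11.4 and 13.6 TPM in PC9. It was called higher in PC9-BrM4 than in PC9 (1.36; adjusted p = 0.000183). It was also called higher in PC9-AMG than in PC9 (0.65; adjusted p = 0.0235), a call lost under 6 alternatives. Against PC9-BrM4 it was called lower in PC9-AMG (-0.71; adjusted p = 0.00679), a call lost under 1 alternative. TLR2, a receptor for bacterial lipoproteins, had 3.28 and 3.56 TPM in PC9-AMG, 1.33 and 1.23 TPM in PC9-BrM4 and 4.61 and 3.36 TPM in PC9, and was lower in PC9-BrM4 than in PC9, at -1.12 (adjusted p = 0.00716; 0.0809 without PC9 library 1). Both CD40 calls held under every alternative run.

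Of the adaptors and kinases, 3 of 25 were higher and 1 lower in PC9-BrM4 against PC9, 0 and 1 in PC9-AMG against PC9, and 0 and 3 in PC9-AMG against PC9-BrM4. These are shares of 16.0%, 4% and 12%, against 16.3%, 7.49% and 18.6% of all genes tested. TRAF5, an adaptor of tumour necrosis factor receptors, had 5.68 and 4.23 TPM in PC9-AMG, 13.1 and 11.4 TPM in PC9-BrM4 and 6.40 and 6.35 TPM in PC9. TRAF3, an adaptor that restrains the noncanonical pathway, had 14.7 and 12.5 TPM in PC9-AMG, 29.4 and 24.8 TPM in PC9-BrM4 and 17.9 and 18.1 TPM in PC9. Both were lower in PC9-AMG than in PC9-BrM4, TRAF5 at -1.16 (adjusted p = 0.00230) and TRAF3 at -0.95 (adjusted p = 0.00215), under every alternative run. IRAK1, a kinase of interleukin-1 signalling, was higher in PC9-BrM4 than in PC9 by 0.64 (adjusted p = 0.00744; 0.0572 when PC9 library 1 was left out and 0.0853 when PC9-BrM4 library 1 was). MAP3K8, a kinase that NFKB1 products bind, had 18.8 and 22.1 TPM in PC9-AMG, 34.9 and 31.5 TPM in PC9-BrM4 and 34.6 and 31.3 TPM in PC9. It was lower in PC9-AMG than in PC9-BrM4, at -0.68 (adjusted p = 0.00746), a call lost without PC9-BrM4 library 1, at -0.60. It was also lower in PC9-AMG than in PC9, at -0.66 (adjusted p = 0.0199), a call lost under 6 alternatives. In PC9-BrM4 against PC9 its difference was 0.01 and not called.

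Among 22 other tested NF-kappaB targets, 8 were higher and 6 lower in PC9-BrM4 against PC9, 1 and 3 in PC9-AMG against PC9, and 3 and 7 in PC9-AMG against PC9-BrM4, which are shares of 63.6%, 18.2% and 45.5%. CXCL8, a further neutrophil chemokine, had 26.1 and 33.7 TPM in PC9-AMG, 49.7 and 45.7 TPM in PC9-BrM4 and 27.6 and 23.0 TPM in PC9. The PC9-BrM4 libraries were the highest, and the difference against PC9 was 0.89 (adjusted p = 0.00366; 0.0526 without PC9-BrM4 library 1). IL32, an inflammatory cytokine, had 96.9 and 90.5 TPM in PC9-AMG, 120 and 155 TPM in PC9-BrM4 and 64.3 and 62.0 TPM in PC9, and was higher in PC9-BrM4 than in PC9 by 1.10 (adjusted p = 0.000417), under every alternative run. IL32 was also higher in PC9-AMG than in PC9 by 0.56 (adjusted p = 0.0304), a call lost under 6 alternatives. It was lower in PC9-AMG than in PC9-BrM4, at -0.54 (adjusted p = 0.0178), a call lost under 7. CCL28, a mucosal chemokine, had 7.29 and 6.35 TPM in PC9-AMG, 21.2 and 16.2 TPM in PC9-BrM4 and 9.34 and 10.7 TPM in PC9, and was lower in PC9-AMG than in PC9-BrM4, at -1.33 (adjusted p = 0.000924), under every alternative run. TNFSF10, a ligand of death receptors, had 14.6 and 15.8 TPM in PC9-AMG, 19.5 and 17.5 TPM in PC9-BrM4 and 30.1 and 28.4 TPM in PC9. It was lower than in PC9 in PC9-AMG, at -0.90 (adjusted p = 0.00624), and in PC9-BrM4, at -0.63 (adjusted p = 0.00991). Both calls were lost without PC9 library 1, at -0.86 and -0.59, and without PC9 library 2, at -0.94 and -0.67.

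In the list of IL-6 family receptors and output of the transcription factor STAT3, 14 genes were tested, of which 1 was higher and 5 lower in PC9-BrM4 against PC9, 0 and 0 in PC9-AMG against PC9, and 5 and 2 in PC9-AMG against PC9-BrM4, which are shares of 42.9%, 0% and 50%. For the comparison without a call 4 of the 14 genes had an unadjusted p under 0.05, and the lowest adjusted p in limma belonged to LIFR, the receptor of LIF (-0.67; adjusted p = 0.0592), which was called under 6 alternatives, without PC9-BrM4 library 1 or 2 among them (0.0346 and 0.0339). LIFR had 9.46 and 10.5 TPM in PC9-AMG, 4.65 and 2.98 TPM in PC9-BrM4 and 16.3 and 16.7 TPM in PC9. Its PC9-BrM4 libraries were the lowest, at -1.88 against PC9 (adjusted p = 0.000187), under every alternative run. Of 14 complement components and regulators tested, 1 was higher and 5 lower in PC9-BrM4 against PC9, 1 and 0 in PC9-AMG against PC9, and 5 and 0 in PC9-AMG against PC9-BrM4, which are shares of 42.9%, 7.14% and 35.7%. Of the 14, 1 passed the filter only through PC9 and is among the 5 called lower. C1S, a protease of the classical pathway, had 35.6 and 33.0 TPM in PC9-AMG, 17.8 and 17.8 TPM in PC9-BrM4 and 31.6 and 34.9 TPM in PC9. SERPING1, the inhibitor of that protease, had 6.34 and 5.65 TPM in PC9-AMG, 2.63 and 2.59 TPM in PC9-BrM4 and 0.619 and 1.06 TPM in PC9. C1S was lower in PC9-BrM4 than in PC9, at -0.87 (adjusted p = 0.00131), and SERPING1 was higher in PC9-AMG than in PC9 by 1.94 (adjusted p = 0.00194), both under every alternative run. SERPING1 was also higher in PC9-BrM4 than in PC9 by 0.98 (adjusted p = 0.013), a call lost under 3 alternatives.

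Of 11 tested genes of prostaglandin synthesis and response, 2 were higher and 2 lower in PC9-BrM4 against PC9, 0 and 1 in PC9-AMG against PC9, and 3 and 3 in PC9-AMG against PC9-BrM4, which are shares of 36.4%, 9.09% and 54.5%. In this list SLCO2A1, at 0.344 to 1.69 TPM over the libraries, passed the filter through only 1 line, so the counts are a description. PTGS1, the constitutive cyclooxygenase beside PTGS2, had 5.11 and 4.63 TPM in PC9-AMG, 12.7 and 11.1 TPM in PC9-BrM4 and 7.59 and 7.70 TPM in PC9. PTGS1 was lower in PC9-AMG than in PC9-BrM4, at -1.13 (adjusted p = 0.00150), under every alternative run, whereas PTGS2 was at 0.50 in that comparison and not called. ABCC4, a transporter that exports prostaglandins, had 7.27 and 6.57 TPM in PC9-AMG, 17.8 and 11.8 TPM in PC9-BrM4 and 3.83 and 3.88 TPM in PC9, and was higher in PC9-BrM4 than in PC9 by 1.68 (adjusted p = 0.000507), under every alternative run. A separate list held 10 receptors of member ligands, of which 2 were high enough to test. It is not all such receptors: TNFRSF1A, at 130 to 154 TPM, and IL1R1, at 6.97 to 17.4 TPM, were tested among the upstream receptors. In this list 1 gene was higher in PC9-BrM4 against PC9 and none was called otherwise, which are shares of 50%, 0% and 0%. CSF2RA, a receptor chain for the CSF2 product, was called higher in PC9-BrM4 than in PC9, at 0.58 (adjusted p = 0.0134). That call was lost without PC9 library 1, at 0.63, and without PC9 library 2, at 0.54.

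**Figure D4:**
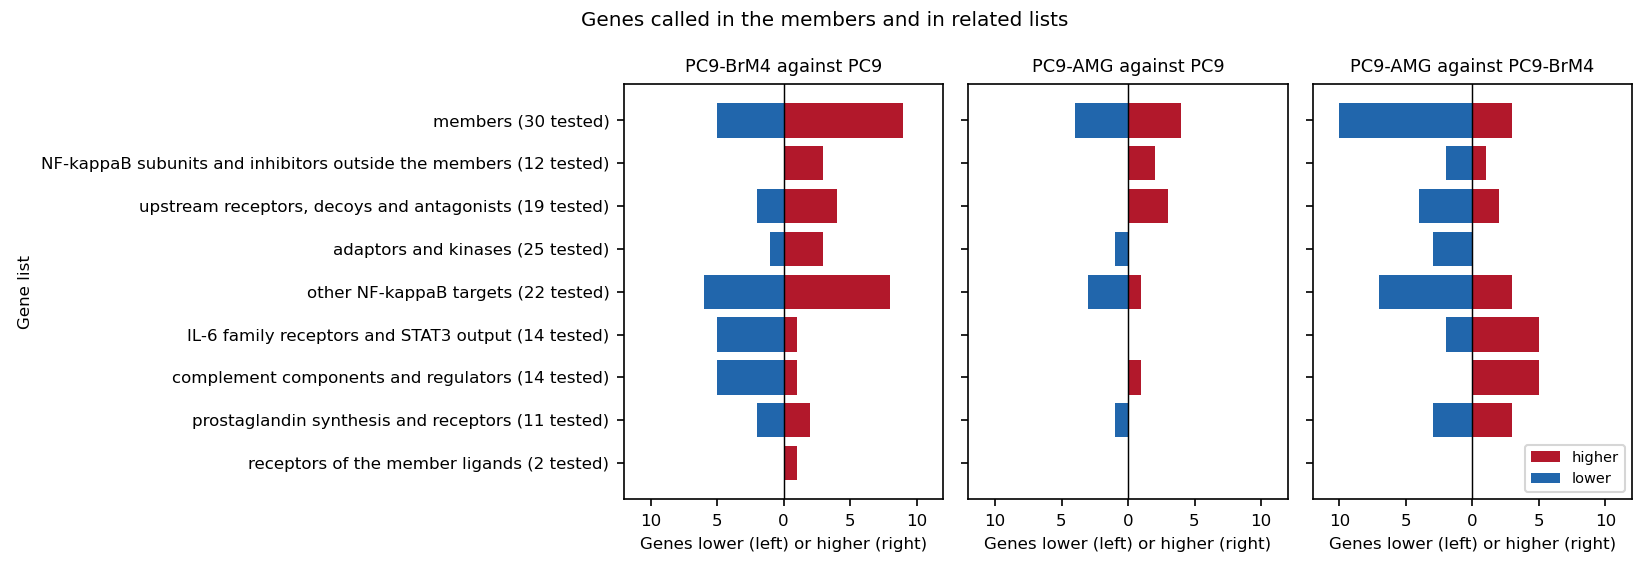
Number of genes called higher (red, to the right) or lower (blue, to the left) at an adjusted p under 0.05 among the members and in the related lists, with 1 panel per comparison and the number of genes tested beside each list. The 22 other NF-kappaB targets hold 8 higher and 6 lower genes in PC9-BrM4 against PC9, and 1 and 3 in PC9-AMG against PC9.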

How the data were processed

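Total RNA was extracted with TRIzol and made into stranded mRNA libraries (TruSeq), per the labels' protocols. HISAT2 2.1.0, StringTie 1.3.4d and the build hg38 are named in the submitters' processing notes, whose annotation is not given in the sources used here. The authors deposited TPM, FPKM and read coverage per gene and library; counts were not used here, so depth in reads is unknown and no counting interval is given. Groups came from the cell line labels. Rows of a gene symbol were summed. limma 3.58.1 (R 4.3.3) was fitted to log2(TPM + 1) over all 6 libraries with 1 mean per line, moderated variances and a trend (3 residual and 6.81 prior degrees of freedom), two-sided, for genes at 1 TPM or more in at least 2 libraries, with Benjamini-Hochberg adjustment over 14627 genes, and was tested on simulated data. Alternatives changed scaling, pseudocount, filter, unit, model and libraries. All members were accounted for, and of related lists, up to 4 called genes with the largest absolute difference could be named. Members and lists were chosen with earlier results of these data known. Promoters came from RefSeq (GRCh38.p14), matched by symbol, and transcripts from GENCODE.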

Additional observations from a re-analysis of the deposited data

Results flagged for a closer look

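PTX3 was singled out because its differences against PC9 had opposite signs in the derived lines and the difference between those lines itself passed the test. PC9-AMG minus PC9-BrM4 was -1.58 on the log2(TPM + 1) scale (limma, adjusted p = 5.83e-05), with PC9-AMG minus PC9 at -0.71 and PC9-BrM4 minus PC9 at 0.87. Both PC9-AMG libraries were below, and both PC9-BrM4 libraries above, both PC9 libraries. No group has the 4 libraries needed to look for a library that lies far from the others.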

How the results depend on the processing

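Of the member calls, 8 of 14 in PC9-BrM4 against PC9, 2 of 8 in PC9-AMG against PC9 and 6 of 13 in PC9-AMG against PC9-BrM4 held under all alternatives, and no called member changed sign under any of them. In PC9-AMG against PC9, 1096 genes were called, against 250 without a filter and 325 without the variance trend, and without a filter 1 member was called higher, against 4. In PC9-AMG against PC9-BrM4, 2720 genes were called, against 1799 without a filter, and members called higher were 8 with median centring, 5 with TPM rescaled without the 100 highest genes and 7 with FPKM, against 3. Leaving out a library gave 892 to 2383 genes in PC9-BrM4 against PC9, 131 to 1152 in PC9-AMG against PC9 and 1024 to 2886 in PC9-AMG against PC9-BrM4. Members called higher and lower then ranged over 5 to 8 and 3 to 5, over 0 to 3 and 2 to 4, and over 1 to 3 and 6 to 10 in the same comparisons. The cause of these shifts was not tested. Leaving out a library also leaves fewer degrees of freedom, and the part of that was not tested either. With the replicate number as a block, 2483, 1298 and 2905 genes were called in those comparisons, and BCL3 was gained as lower in PC9-AMG against PC9, with no other member call changed. Deviations of same-numbered libraries correlated at 0.0292, -0.0388 and 0.00267 over all genes tested. The ratio of SAA2 to SAA1 was higher in library 1 than in library 2 of every line. That of CXCL2 to CXCL1 was higher in library 2 of every line. No other ratio was looked at, so these orders are a description. Whether same-numbered libraries share more than a number was not tested. A filter of 5 TPM left 26 members tested. With 2 libraries per line and TPM without counts, genes near 1 TPM in some libraries, such as CXCL3, CSF2, IL1A and IL1B, are the least certain.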
